A study of Mus musculus with 8 samples.

Results

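The genes described here are 9 factors and products of the endothelial-to-mesenchymal transition (EndMT), taken by symbol from a table of 33641 gene symbols: the transcription factors Snai1, Snai2, Twist1, Twist2, Zeb1 and Zeb2, and the mesenchymal products Vim, Cdh2 and S100a4. All 9 were found in each library. Transcript levels were given as TPM, a length-scaled unit in which each gene's signal is divided by its transcript length and every library is scaled to the same total, so that levels can be compared between genes but the sequencing depth is unknown. RNA came from CD45-CD31+ tumor endothelial cells (TECs), sorted at day 21 from microdissected lung tumors grown from mCherry-labelled Lewis lung carcinoma (LLC) cells injected into the left lung lobe. The endFoxf1+/- group (n = 4 libraries, H1 to H4) carried Pdgfb-CreER and 1 floxed Foxf1 allele (Pdgfb-CreER tg/+; Foxf1 fl/+), so that 1 allele was deleted after tamoxifen in cells that express the Pdgfb promoter. The control group (n = 4 libraries, C1 to C4) was labelled only as control. The study describes its controls as single transgenic littermates, Foxf1 fl/+ or Pdgfb-Cre, on the C57Bl/6 background. Its tumor methods also name C57Bl/6 wild-type controls, and the genotype of each control library is not given. Both groups received tamoxifen at 6-8 weeks of age. The comparison asked whether EndMT genes differed between TECs with 1 and with 2 functional Foxf1 alleles.

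EndMT is a process in which endothelial cells lose junctional and vascular genes and take up the genes of mesenchymal cells. The Snail factors Snai1 and Snai2 and the Zeb factors Zeb1 and Zeb2 are zinc finger repressors that bind E-box DNA, and the Twist factors are basic helix-loop-helix proteins that bind the same kind of site. Vimentin (Vim), an intermediate filament protein, N-cadherin (Cdh2), an adhesion molecule, and S100a4, a calcium-binding protein also called fibroblast-specific protein, are widely used as readouts of the process, and all of them are also made by fibroblasts, by leukocytes or by both.

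Foxf1 itself was examined first because it checks the labels. Its level was 213, 285, 296 and 331 TPM in control libraries C1 to C4 and 177, 203, 14.04 and 105 TPM in endFoxf1+/- libraries H1 to H4. Every endFoxf1+/- library lay below all controls, and the log2 fold change was -1.68 (by the exact permutation test, p = 0.0286, the smallest that 4 against 4 libraries can give). Without H3, it was -0.83 (exact permutation p = 0.0571), and without any 1 of the controls the exact permutation p was 0.0857 to 0.114. The groups did not overlap in any of these fits. Library H3 stood apart: its 20 endothelial marker genes were at 5.82% of the control mean, those of H4 were at 56.0%, and those of the other 6 libraries were between 86.0% and 109%. On the log2 scale, Foxf1 in H3 was at -4.21 from the control mean and the endothelial markers at -4.10, so its level there does not check the label of H3. In such sorted bulk samples, fewer cells of a type and less RNA per cell cannot be told apart. The differences of the 9 genes are therefore given with and without H3.

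The 9 genes covered a wide range of levels in control TECs. Vim was the highest, at 1397 ± 116 TPM (SD, n = 4), above 99.5% of the 14964 genes that passed the filter on low values (4 or more libraries with a TPM of 1 or more). S100a4 followed at 221 ± 118 TPM, Zeb1 at 125 ± 13.99 TPM and Zeb2 at 66.1 ± 8.26 TPM. Snai2 was at 9.52 ± 0.486 TPM and Snai1 at 2.57 ± 0.755 TPM. Cdh2 (1.16 ± 0.469 TPM), Twist1 (0.809 ± 0.665 TPM) and Twist2 (0.783 ± 0.299 TPM) lay near the limit of the filter. The control ranges of S100a4 and Zeb1 overlapped, as did those of Snai1 and Cdh2 and those of Cdh2, Twist1 and Twist2, so that the order within these neighbours was not separated by the spread between libraries. All 9 genes passed the filter, but Twist1 and Twist2 reached 1 TPM in 1 of 4 control libraries and in 4 of 4 endFoxf1+/- libraries, so they passed through the group in which they were higher.

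**Figure D1:**
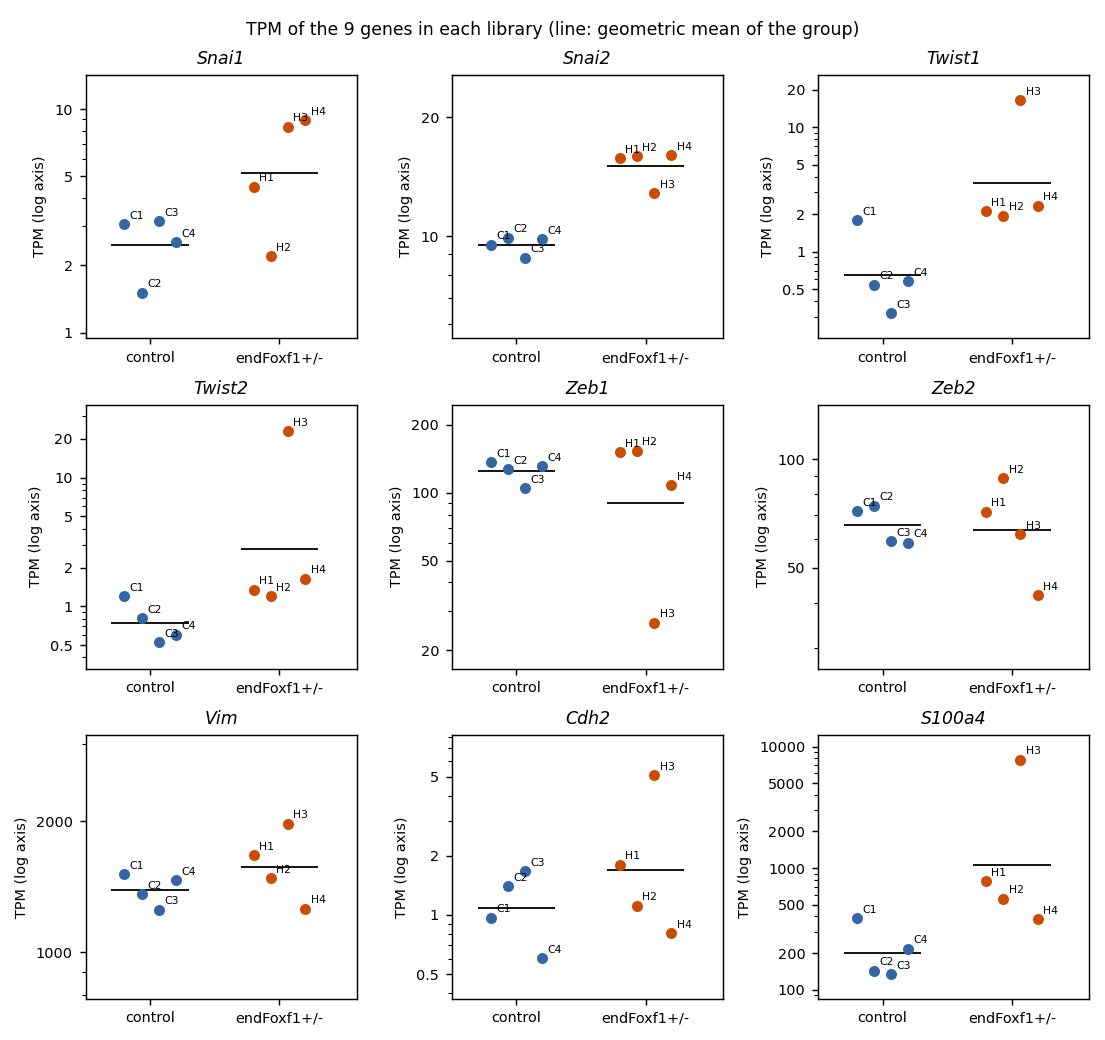
TPM of each of the 9 genes (log axis) in control libraries C1 to C4 (blue) and endFoxf1+/- libraries H1 to H4 (orange), with the geometric mean of each group as a line. The groups do not overlap for Snai2, Twist1 and Twist2, and H3 lies far above the others for Twist1, Twist2 and S100a4 and far below them for Zeb1.

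The clearest separation was in Snai2 (chr16:14705852-14709385, plus strand, GRCm38), which encodes Slug. Its level was 9.53, 9.91, 8.83 and 9.81 TPM in C1 to C4 and 15.8, 15.9, 12.8 and 16.002 TPM in H1 to H4. The controls lay close together, and each endFoxf1+/- library was above all of them. The endFoxf1+/- mean of 15.1 ± 1.54 TPM was 1.59-fold the control mean of 9.52 ± 0.486 TPM (SD, n = 4 each). On the scale of log2(TPM + 1), on which all log2 fold changes are given and which understates the change of low genes, the difference was 0.61 (SE 0.21, 95% interval 0.14 to 1.08, exact permutation p = 0.0286). The limma p adjusted over all 14964 genes was 0.79, so Snai2 did not pass the test across all genes. Without H3 the means differed 1.67-fold, and the log2 fold change was 0.69 (exact permutation p = 0.0286).

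Snai1 (chr2:167538195-167542814, plus strand), the other Snail factor, was at 3.06, 1.51, 3.16 and 2.55 TPM in C1 to C4 and at 4.49, 2.20, 8.35 and 8.92 TPM in H1 to H4. H1, H3 and H4 were above every control, whereas H2 lay inside the control range. The log2 fold change was 0.86 (95% interval -0.03 to 1.75, exact permutation p = 0.114). It was 0.67 without H3 and 0.65 without H4 (exact permutation p = 0.2 each). Leaving out H2, the 1 library inside the control range, separates the groups by construction, and the log2 fold change was then 1.19. The ratio of Snai2 to Snai1 ranged from 2.79 to 6.56 in controls and was 3.51, 7.26, 1.54 and 1.79 in H1 to H4, so Snai1 made up a larger part of the pair in H3 and H4. The log2 of this ratio differed by -0.41 between the groups (exact permutation p = 0.571).

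Twist1 and Twist2 were the lowest of the 6 transcription factors in controls, but in H3 both exceeded Snai1 and Snai2. Twist1 was at 1.79, 0.544, 0.322 and 0.579 TPM in C1 to C4 and at 2.10, 1.95, 16.5 and 2.33 TPM in H1 to H4. Each endFoxf1+/- library was above every control, but H2 exceeded C1 by little and H3 was far above the rest. The log2 fold change was 1.47 (95% interval 0.18 to 2.76, exact permutation p = 0.0286, limma adjusted p = 0.79). Without H3, the log2 fold change was 0.85 (exact permutation p = 0.0571), and the ratio of the means was 2.63 in place of 7.07. The call also ended without C2, C3 or C4 (exact permutation p = 0.0857 each), although the groups still did not overlap. The size depended on the pseudocount, at 2.26 with 0.1 and 0.70 with 5 (exact permutation p = 0.0286 each).

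Twist2 was at 1.194, 0.808, 0.525 and 0.603 TPM in C1 to C4 and at 1.35, 1.198, 23.1 and 1.64 TPM in H1 to H4. H2 and C1 were almost equal, and the absence of overlap rests on that pair. The log2 fold change was 1.27 (95% interval -0.32 to 2.86, exact permutation p = 0.0286, limma adjusted p = 0.79), and 0.44 without H3 (exact permutation p = 0.0571). Without any 1 of the controls, the exact permutation p was 0.114 to 0.229, although the groups still did not overlap. The ratio of the means was 8.71, and 1.78 without H3, and the log2 fold change was 1.80 with a pseudocount of 0.1 and 0.68 with 5. The groups overlapped after scaling by the median ratio, with a log2 fold change of 1.46, and after quantile normalization, with 1.43 (exact permutation p = 0.0571 each). Twist2 shares exonic bases with the antisense RNA Gm29100, and the kit did not mark strand, so their reads cannot be told apart. Within libraries, Twist1 was above Twist2 in H1, H2 and H4 by a ratio of 1.56, 1.63 and 1.42, and below it in H3 at 0.715. In controls the ratio ranged from 0.614 to 1.501, and the log2 ratio did not differ beyond its spread (difference 0.53, exact permutation p = 0.2).

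The promoters of the genes whose levels stood out most in H3 are shown to make these low and high genes concrete. Promoter windows from RefSeq (GRCm38.p6) matched 6 of the 9 genes. Snai2, Zeb1 and Cdh2 were not matched. The 250 bases before the start are printed 5′ to 3′ for Twist1 (chr12:33957421-33957670, plus strand), Twist2 (chr1:91801211-91801460, plus strand) and S100a4 (chr3:90603520-90603769, plus strand). Capitals mark TATAAA, the core of a TATA box, and GGGCGG, a GC box core, each searched on both strands:
Twist1: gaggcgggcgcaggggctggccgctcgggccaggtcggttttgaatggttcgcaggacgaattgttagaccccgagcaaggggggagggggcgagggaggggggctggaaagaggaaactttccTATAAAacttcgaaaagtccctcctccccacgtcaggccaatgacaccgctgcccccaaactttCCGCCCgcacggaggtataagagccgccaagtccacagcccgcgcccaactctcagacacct
Twist2: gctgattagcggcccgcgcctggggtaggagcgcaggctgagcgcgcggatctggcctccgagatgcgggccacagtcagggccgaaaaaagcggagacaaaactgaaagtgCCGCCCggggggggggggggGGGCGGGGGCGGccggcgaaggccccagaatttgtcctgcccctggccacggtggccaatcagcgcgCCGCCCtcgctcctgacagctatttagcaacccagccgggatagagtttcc
S100a4: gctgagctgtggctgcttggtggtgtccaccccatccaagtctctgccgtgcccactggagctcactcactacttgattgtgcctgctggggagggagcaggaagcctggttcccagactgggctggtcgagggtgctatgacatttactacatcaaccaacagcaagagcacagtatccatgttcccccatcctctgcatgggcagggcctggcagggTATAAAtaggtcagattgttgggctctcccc
The S100a4 window held TATAAA with its first base 31 bases before the start, and that of Twist1 held it 126 bases before the start, whereas Twist2 had none. GGGCGG occurred 4 times before Twist2, 1 time before Twist1 and 0 times before S100a4. Of 32851 promoter windows in the table (250 bases before to 50 after the start), 13.6% held TATAAA and 35.7% held GGGCGG. The E-box CANNTG, the site type of the Snail, Zeb and Twist proteins, was in 72.3% of all windows, and among the matched genes only Snai1 had it, as CAGGTG or CACCTG. These matches describe letters in a window and nothing about binding.

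Zeb1 and Zeb2 were abundant in TECs of both groups. Zeb1 was at 136, 127, 105 and 131 TPM in C1 to C4 and at 151, 153, 26.6 and 108 TPM in H1 to H4. H1 and H2 were above every control, H4 was inside the control range and H3 was below it. The log2 fold change was -0.45 over all libraries (95% interval -1.59 to 0.68, exact permutation p = 0.743) and 0.13 without H3 (exact permutation p = 0.514), so its direction depended on that library. Zeb2 (chr2:44983632-45117395, minus strand) was at 71.9, 74.5, 59.2 and 58.8 TPM in C1 to C4 and at 71.6, 88.7, 62.1 and 42.0 TPM in H1 to H4, with H2 above and H4 below the controls. Its log2 fold change was -0.04 (95% interval -0.62 to 0.54, exact permutation p = 0.943) and was -0.03 without H3 (exact permutation p = 0.943). It turned positive under other scalings. Zeb1 exceeded Zeb2 in each library except H3, where the ratio of Zeb1 to Zeb2 was 0.428, against 1.71 to 2.24 in controls and 2.11, 1.73 and 2.56 in H1, H2 and H4. Both Zeb genes share exonic bases with annotated RNAs on the opposite strand, and the library kit did not mark strand, so reads from these cannot be told apart.

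Among the mesenchymal products, S100a4 (chr3:90603771-90606045, plus strand) showed the largest difference of the 9 genes. Its level was 389, 143, 135 and 217 TPM in C1 to C4 and 779, 561, 7784 and 379 TPM in H1 to H4. H1, H2 and H3 were above every control, whereas H4 was just below C1. The log2 fold change was 2.40 (SE 0.85, 95% interval 0.49 to 4.32, exact permutation p = 0.0571, limma adjusted p = 0.79). H3 set much of this size: without it the ratio of the means was 2.59 in place of 10.8, and the log2 fold change was 1.45 (exact permutation p = 0.0857). The overlap of H4 with C1 ended under both other scalings and when TPM was rescaled without Gm20594, a single gene that took 5.11% to 21.8% of a library and was highest in H4. The log2 fold change was then 2.32 to 2.60 (exact permutation p = 0.0286 each). S100a4 shares exonic bases with Gm42674 on the same strand, so its reads may be divided between them.

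Vim (chr2:13573927-13582826, plus strand) was at 1512, 1359, 1252 and 1463 TPM in C1 to C4 and at 1671, 1478, 1972 and 1260 TPM in H1 to H4. H1 and H3 were above the controls and H2 and H4 were inside their range, and the log2 fold change was 0.18 (95% interval -0.47 to 0.82, exact permutation p = 0.286), and 0.07 without H3 (exact permutation p = 0.6). Rescaling without Gm20594 put every endFoxf1+/- library above all controls, and the log2 fold change was then 0.22 (by the exact permutation test, p = 0.0286). Cdh2 was at 0.970, 1.39, 1.67 and 0.602 TPM in C1 to C4 and at 1.80, 1.11, 5.11 and 0.809 TPM in H1 to H4. The groups overlapped, and the log2 fold change was 0.42 (95% interval -0.48 to 1.33, exact permutation p = 0.429), and 0.06 without H3. Among the endFoxf1+/- libraries, N-cadherin was above all controls in H1 (1.80 TPM) and H3 (5.11 TPM).

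**Figure D2:**
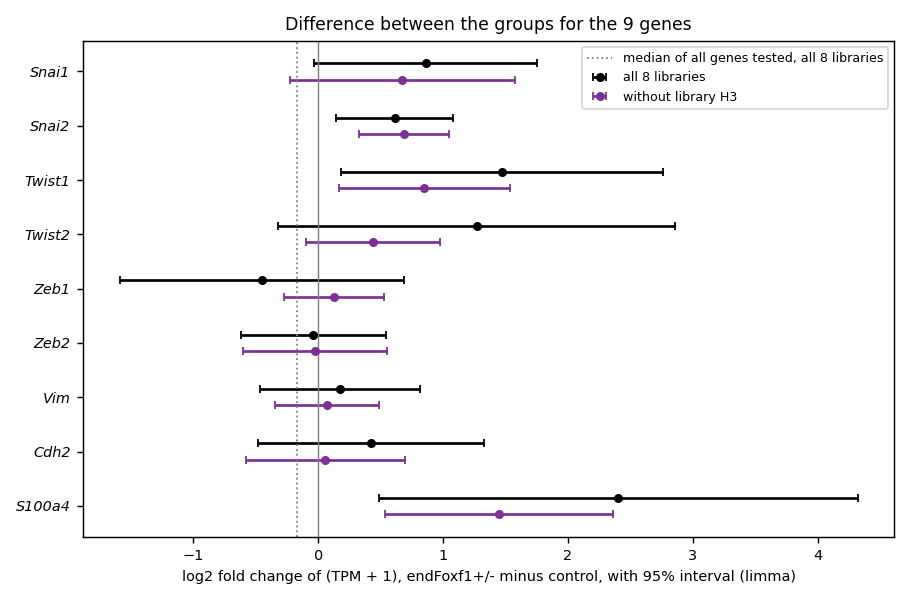
Log2 fold change of (TPM + 1), endFoxf1+/- minus control, with the 95% limma interval, for each of the 9 genes over all 8 libraries (black) and without H3 (purple), and the median of all genes tested as a dotted line. Snai2 keeps nearly the same value in both fits, Zeb1 moves from -0.45 to 0.13, and S100a4, Twist1 and Twist2 move toward 0 without H3.

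Across the 9 genes, 7 had a positive and 2 a negative log2 fold change, with a median of 0.61. Over all 14964 genes, 32% had a positive and 68% a negative log2 fold change, and the median was -0.17. This shift depended on H3, since the median of all genes was 0.01 without H3 and -0.14 without H4. Scaling by the median ratio brought the median of all genes to -0.01 and that of the 9 genes to 0.80. No gene of the table passed a limma adjusted p of 0.05 (0% of genes, with 836 or 5.59% at an unadjusted p under 0.05). Among the 9 genes, Snai2, Twist1 and S100a4 had an unadjusted limma p under 0.05, all of them higher (background 2.82% higher and 2.77% lower), and Twist1 had passed the filter through the endFoxf1+/- group. Snai2, Twist1 and Twist2, 3 of 9, were above all controls in every endFoxf1+/- library, where 2.73% of all genes were, and 0 of 9 were below all controls in every library (2.31% of all genes). Since Twist1 and Twist2 passed the filter through the endFoxf1+/- group, this count is a description and not an excess over the background. Without H3 the same 3 genes did not overlap (background 6.5% above and 2.6% below). Without H3 and H4, Zeb1 and S100a4 joined them, giving 5 of 9, with 0 of 9 below all controls (background 20.2% above and 4.19% below).

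The libraries differed in which of the 9 genes exceeded the control range. In H1, 8 of 9 were above all controls and Zeb2 was inside their range, while 35.8% of all genes were above and 10.4% below. In H2, 6 of 9 were above (Snai2, both Twist genes, both Zeb genes and S100a4), with 34.9% of all genes above and 12.5% below. In H3, 7 of 9 were above and Zeb1 was below, whereas 16.8% of all genes were above and 68.2% below. In H4, 4 of 9 were above (both Snail and both Twist genes) and Zeb2 was below, with 24.2% of all genes above and 49.4% below. The only genes above all controls in each of the 4 libraries were thus Snai2, Twist1 and Twist2, whereas Zeb1 was above in H1 and H2, Zeb2 in H2, and Snai1 was above in all but H2. Because Twist1 and Twist2 passed the filter through the endFoxf1+/- group, these counts are a description and not an excess over all genes.

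Markers of other cell types were read in the same libraries, where 2.73% of all genes were above and 2.31% below all controls in every endFoxf1+/- library. The summed level of 10 fibroblast markers was 41.5 to 108 TPM in controls and 121 to 1428 TPM in endFoxf1+/- libraries (121 to 330 TPM without H3), with 4 of 10 markers above all controls in every library and none at 0. The list did not move as 1 in H3, where 6 of 10 markers were above all controls and 4 were below, among them Col1a2 (2.39 TPM), Tcf21 (0.692 TPM) and Mfap5 (1.73 TPM). The most abundant by their highest value were Col3a1, a fibrillar collagen, at 15.6 to 43.4 TPM in controls and 74.4, 44.4, 556 and 118 TPM in H1 to H4, and Dcn, the proteoglycan decorin, at 7.64 to 22.7 TPM in controls and 47.2, 36.6, 533 and 82.6 TPM in H1 to H4. The 10 myeloid markers summed to 1506 to 5161 TPM in controls and 1989 to 9452 TPM in endFoxf1+/- libraries (1989 to 4738 TPM without H3), with 1 of 10 above all controls. The macrophage gene Lyz2 reached 6870 TPM in H3 and Tyrobp, an immune signalling adaptor, 1413 TPM. The 10 proliferation genes summed to 90.5 to 109 TPM in controls and 105 to 425 TPM in endFoxf1+/- libraries (105 to 189 TPM without H3), and 3 of them were above all controls. The 10 pericyte and smooth muscle markers went the other way, at 38.0 to 67.0 TPM in controls and 29.4 to 42.1 TPM in endFoxf1+/- libraries, with 2 of 10 below all controls, and the pericyte gene Rgs5 at 10.7 to 18.9 and 0.602 to 6.66 TPM. Lymphocyte markers summed to 19.5 to 33.8 TPM in controls and 22.9 to 129 TPM in endFoxf1+/- libraries (22.9 to 35.4 TPM without H3), with 1 of 10 above all controls. Trbc2 (40.1 TPM) and Nkg7 (30.0 TPM) were the highest in H3, whereas Cd3d, the highest of the list in each control, was at 7.91 TPM there, below all controls. Epithelial markers, led by the surfactant genes Sftpc and Sftpa1, ranged from 6895 to 32550 TPM in controls and 1625 to 26814 TPM in endFoxf1+/- libraries. Neutrophil markers summed to 10.3 to 79.8 TPM in controls and 23.1 to 431 TPM in endFoxf1+/- libraries (23.1 to 67.1 TPM without H3, inside the control range), led by S100a9 and S100a8. Mesothelial markers summed to 6.89 to 31.3 and 8.28 to 29.7 TPM, led by Krt19. Msln came next through its value in H4 (15.8 TPM), and was at 0.138 to 1.95 TPM in controls. No epithelial, neutrophil or mesothelial marker separated the groups. Erythroid and platelet markers, led by Ppbp and Pf4, went from 912 to 1888 TPM in controls to 395 to 971 TPM, with 2 of 8 below all controls. No list of markers for the LLC tumor cells was read. The part of these tumor cells and of the cell types above in the levels of the 9 genes was not tested.

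**Figure D3:**
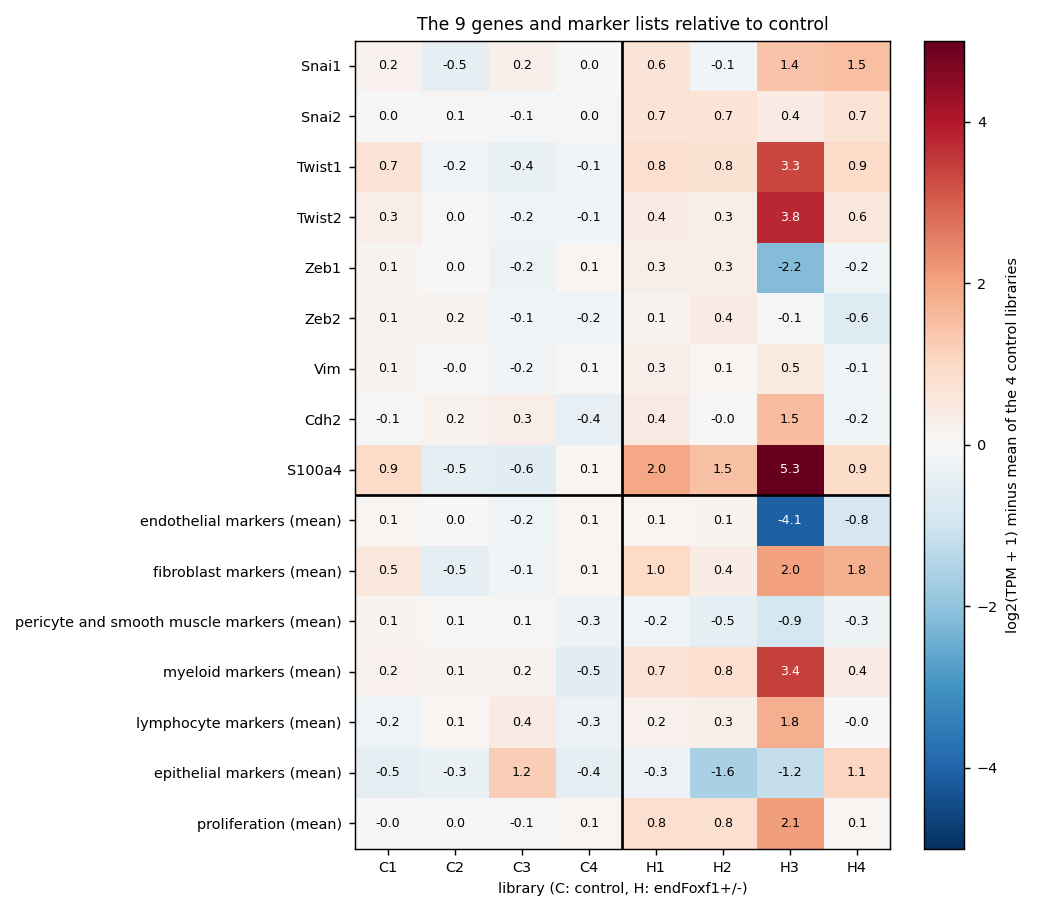
Log2(TPM + 1) minus the mean of the 4 control libraries, for the 9 genes (above the line) and the mean of each marker list (below), in the 8 libraries. In H3 the endothelial list is at -4.1 while S100a4, Twist2, Twist1 and the myeloid list are at 3.3 to 5.3, and in H1 and H2 the endothelial list is at the control level.

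The mean log2 level of the 20 endothelial markers itself differed by -1.17 between the groups, so that most genes are higher relative to it: 97.1% of all genes tested had a positive difference, with a median of 1.001, and 7.95% were higher at an exact permutation p under 0.05. All 9 genes had a positive difference, which is therefore no feature of theirs, and 4 of 9 passed the test, Twist1 among them, which entered through the endFoxf1+/- group. The difference was 1.78 for Snai2, 2.64 for Twist1, 0.72 for Zeb1 and 3.57 for S100a4 (exact permutation p = 0.0286 each), and that of Zeb1 was below the median of all genes. Each of these 4 calls ended without any 1 of the controls, with an exact permutation p of 0.0857 to 0.114 for Snai2, 0.0857 to 0.143 for Twist1, 0.171 for Zeb1 and 0.114 for S100a4. It was 2.44 for Twist2 (exact permutation p = 0.0571), 2.03 for Snai1 (exact permutation p = 0.171), 1.13 for Zeb2 (exact permutation p = 0.114), 1.35 for Vim (exact permutation p = 0.114) and 1.59 for Cdh2 (exact permutation p = 0.2). The differences were smaller without H3, whose endothelial level was the lowest. Without H3, the difference was 0.88 for Snai2 and 0.32 for Zeb1 (exact permutation p = 0.0286 each), 1.04 for Twist1, 0.63 for Twist2 and 1.64 for S100a4 (exact permutation p = 0.0571 each). The mean log2 level of the 10 fibroblast markers was higher by 1.30 in the endFoxf1+/- group, so that 98.6% of all genes tested were lower relative to it, with 21.7% of all genes lower at an exact permutation p under 0.05. Of the 9 genes, 7 were below 0. The differences were -0.68 for Snai2 (exact permutation p = 0.2), 0.17 for Twist1 (exact permutation p = 0.686), -0.03 for Twist2 (exact permutation p = 1), -0.44 for Snai1 (exact permutation p = 0.0571) and 1.10 for S100a4 (exact permutation p = 0.257). It was -1.75 for Zeb1 (exact permutation p = 0.0857), -1.34 for Zeb2 (exact permutation p = 0.114), -1.12 for Vim (exact permutation p = 0.0571) and -0.87 for Cdh2 (exact permutation p = 0.2). Without H3 these were -0.36 for Snai2, -0.20 for Twist1, -0.61 for Twist2, -0.37 for Snai1, 0.40 for S100a4, -0.92 for Zeb1, -1.07 for Zeb2, -0.98 for Vim and -0.99 for Cdh2. With or without H3, none of the 9 passed the test relative to fibroblast markers, which does not show that they moved alike. The mean log2 level of the 10 myeloid markers was higher by 1.35, and 98.8% of all genes tested were lower relative to it, with 45.1% of all genes lower at an exact permutation p under 0.05. Relative to these markers, 7 of 9 genes were below 0 and 4 of 9 passed the test, which is near the share of all genes. Zeb1 (-1.80), Zeb2 (-1.39), Vim (-1.17) and Cdh2 (-0.92) were lower (exact permutation p = 0.0286 each), and S100a4 was at 1.05 (exact permutation p = 0.171). Without H3 these 4 calls ended, at -0.53 for Zeb1, -0.69 for Zeb2, -0.59 for Vim and -0.60 for Cdh2 (exact permutation p = 0.0571 each).

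Of 16 other EMT transcription factors, 12 passed the filter, and 5 were higher and 7 lower, with a median log2 fold change of -0.05. This balance depended on the scaling and the libraries, with 8 higher and 4 lower under the median ratio (median 0.14), 7 and 5 without H3, and 10 and 2 without H3 and H4. Prrx1 and Prrx2, paired-related homeobox factors of mesenchymal cells, were above all controls in every endFoxf1+/- library, where 2.73% of all genes were (6.5% without H3). Prrx1 was at 2.89, 1.13, 2.19 and 2.36 TPM in C1 to C4 and 6.21, 3.40, 49.5 and 8.82 TPM in H1 to H4 (log2 fold change 1.87, and 1.14 without H3). Prrx2 was at 0.451, 0, 0.307 and 0 TPM in C1 to C4 and 1.04, 1.29, 10.3 and 3.52 TPM in H1 to H4 (log2 fold change 1.74, and 1.23 without H3). Prrx2 passed the filter through the endFoxf1+/- group alone. Sox9, a factor of cartilage and progenitor cells, overlapped between the groups (log2 fold change 1.12, and 0.56 without H3). Of 12 genes of TGF-beta input, the main signal known to start EndMT, all passed the filter, 4 were higher and 8 lower, with a median of -0.11. Under the median ratio 7 were higher and 5 lower (median 0.08), without H3 6 and 6, and without H3 and H4 9 and 3 (median 0.16). None separated the groups. The largest changes were in the receptors Acvrl1 (-1.34) and Eng (-1.06) and in the ligand Tgfb3 (0.96), and they were -0.36, -0.22 and 0.48 without H3.

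Of 15 other mesenchymal products, 14 passed the filter, 10 were higher and 4 lower, with a median of 0.27. The balance depended on H4 as well as H3: without H3, 11 were higher and 3 lower (median 0.52), whereas without H4, 7 were higher and 7 lower (median -0.0027). Fn1, the matrix protein fibronectin, was at 52.3, 32.8, 33.4 and 51.7 TPM in C1 to C4 and at 135, 92.5, 811 and 265 TPM in H1 to H4. Every endFoxf1+/- library was above all controls (log2 fold change 2.43, 95% interval 1.10 to 3.76, exact permutation p = 0.0286, limma adjusted p = 0.79), and the log2 fold change without H3 was 1.82. Col3a1 (2.28) and Tgfbi, a TGF-beta-induced matrix protein (1.76), did not overlap either, and were at 1.55 and 0.98 without H3. Postn, the matrix protein periostin, went the other way, at 24.7, 29.5, 41.7 and 35.04 TPM in C1 to C4 and 24.3, 15.5, 3.48 and 17.5 TPM in H1 to H4 (log2 fold change -1.28, and -0.75 without H3). Acta2, smooth muscle actin, was at 10.7 to 27.2 TPM in controls and 12.5 to 27.1 TPM in endFoxf1+/- libraries, without separation of the groups. By the highest value in any library, it was the most abundant of the 10 pericyte and smooth muscle markers, although Rgs5 was above it in C2 and C3. In all, 3 of the 14 tested products were above and 1 was below all controls in every library, against 2.73% and 2.31% of all genes. The separation of Postn ended when TPM was rescaled without Gm20594.

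Of 10 endothelial genes that EndMT is known to repress, all passed the filter and 10 of 10 had a negative log2 fold change, with a median of -1.15. Most of these genes are also endothelial markers, and H3 carried much of the difference: without it, 8 were lower and 2 higher, with a median of -0.16, and without H3 and H4, 5 were lower and 5 higher (median 0.05). Cldn5, an endothelial tight junction protein, was the only one below all controls in every endFoxf1+/- library, where 2.31% of all genes were. Its level was 1370, 998, 1023 and 1409 TPM in C1 to C4 and 949, 835, 51.0 and 228 TPM in H1 to H4 (log2 fold change -1.93, and -1.07 without H3). Vwf, von Willebrand factor, was at 329 to 722 TPM in controls and 251, 338, 21.7 and 179 TPM in H1 to H4, with H2 inside the control range (log2 fold change -2.02, and -1.16 without H3). Tek, the angiopoietin receptor, was at 260 to 489 TPM in controls and 492, 613, 15.01 and 116 TPM in H1 to H4 (log2 fold change -1.28, and -0.19 without H3). VE-cadherin (Cdh5) was at 1419 to 1813 TPM in controls and at 1547, 1558, 94.9 and 1036 TPM in H1 to H4, with H1 and H2 inside the control range and H3 and H4 below it (log2 fold change -1.19, and -0.23 without H3). In H1, 2 of these 10 genes were below the control range, 5 inside it and 3 above it, and in H2 1 was below, 6 inside and 3 above. Over all genes tested, 10.4% were below and 35.8% above the control range in H1, and 12.5% and 34.9% in H2, so the counts of endothelial genes are near those of all genes. In H1 and H2, 8 and 4 of 10 fibroblast markers, 7 and 9 of 10 myeloid markers and 10 and 10 of 10 proliferation genes were above the control range, and their part was not tested. Of 10 epithelial genes that these factors repress, 8 passed the filter and all 8 were lower, with a median of -0.71 (-0.20 without H3, where 6 were lower and 2 higher). The count also rested on other libraries, with 6 lower and 2 higher without C3 (median -0.43) and 5 lower and 3 higher without H2, and the median was -1.11 without H4. Cdh1, E-cadherin, and the epithelial marker Sftpc were both highest in C3 (30.1 and 26986 TPM) and H4 (46.3 and 19867 TPM), and the part of epithelial cells was not tested. Crb3 (-1.07), Ocln (-1.01) and Cldn3 (-0.94), genes of cell polarity and tight junctions, had the largest log2 fold changes and overlapped between the groups. Without H3 they were at -0.70, -0.29 and -0.43.

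**Figure D4:**
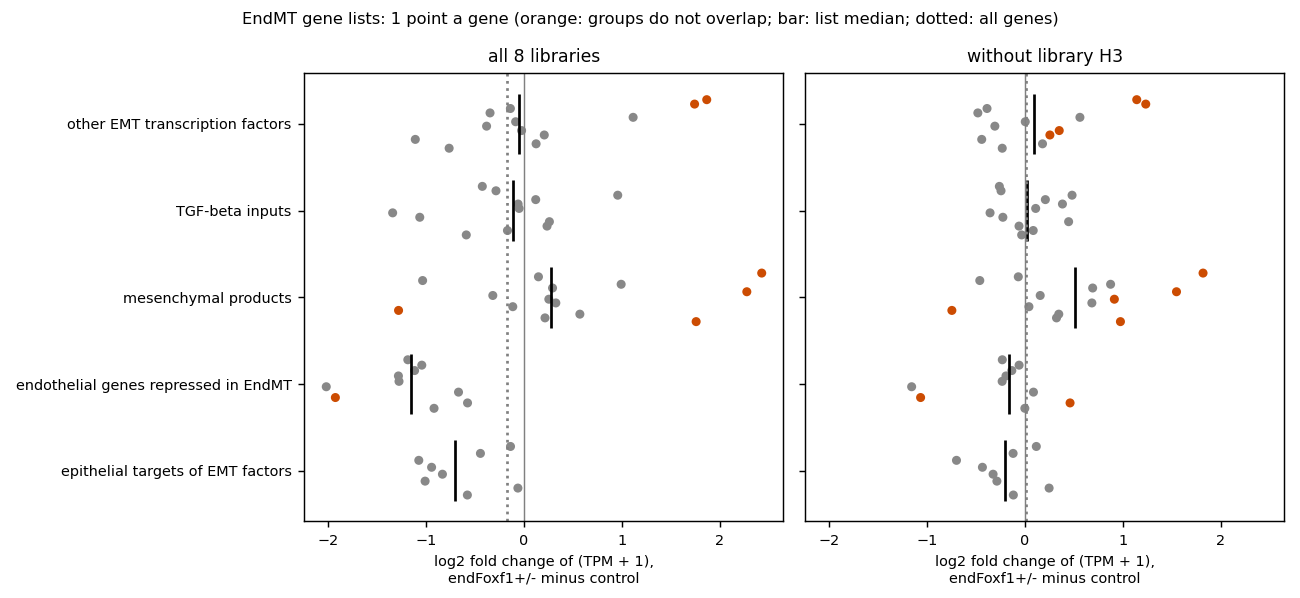
Log2 fold change of (TPM + 1), endFoxf1+/- minus control, of each tested gene in 5 lists related to EndMT, over all libraries (left) and without H3 (right), with genes whose groups do not overlap in orange, the list median as a bar and the median of all genes as a dotted line. The endothelial list has a median of -1.15 with H3 and -0.16 without it.

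The genes whose profile over the 8 libraries was most like each of the 9 were found by the smallest root mean square difference of centred log2(TPM + 1) values. For Snai2 they were Haus6, a subunit of the augmin complex (0.0798), and Ergic1 (0.101). Haus6 was at 4.92, 4.17, 4.37 and 4.69 TPM in C1 to C4 and 8.07, 8.06, 5.71 and 8.05 TPM in H1 to H4. For Zeb2 they were Zfp944 (0.0320) and Parp16 (0.0620), for Zeb1 Hip1 (0.0807) and Lgals9 (0.0858), and for Vim Rnps1 (0.0466) and Eif4e2 (0.0497). For Snai1 they were Pde7a (0.135) and Atp13a3 (0.142), and for Cdh2 B4galt2 (0.122) and Rcc1 (0.146). Twist1 was nearest to Cks1b, a cell cycle regulator (0.195), and Ccbe1 (0.226), and Twist2 to the transcription factors Runx2 (0.244) and Myc (0.248). For S100a4 they were Lgals1, galectin-1, and Rhox5, a reproductive homeobox gene (0.342 each). The difference is not scaled to the size of a gene's own change, so it does not rank nearness between the 9 genes. Lgals1 was at 132, 59.6, 70.8 and 104 TPM in C1 to C4 and 233, 164, 2008 and 126 TPM in H1 to H4. Rhox5 was at 31.3, 7.20, 6.78 and 18.8 TPM in C1 to C4 and 40.4, 25.5, 418 and 16.05 TPM in H1 to H4, with H4 inside the control range as for S100a4.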

How the data were processed

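Tumor endothelial cells (CD45-CD31+) were sorted from LLC lung tumors, RNA was isolated and Nextera XT libraries were sequenced. The submitters' processing notes name TopHat, Cufflinks, Subread and DESeq2 with GRCm38/mm10. The deposited TPM values were made by the authors, 1 table per library, and the step that gave TPM is not given in the sources used here. TPM holds no depth, so no counting error can be given.

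The 9 genes and all lists were chosen with earlier results of these data known. TPM was analysed as log2(TPM + 1) over genes for which 4 or more libraries had a TPM of 1 or more (14964 genes) with limma 3.58.1 in R 4.3.3 (lmFit and eBayes with an intensity trend, Benjamini-Hochberg over all genes, genotype only). Single genes were tested by two-sided exact permutation over 70 assignments, with no adjustment for the number of genes described. The scripts were tested on simulated data. Named genes outside the 9 were those of each EndMT list whose groups did not overlap, the 3 with the largest change per list, the 2 nearest profiles, and the 2 most abundant genes of each marker list. Cdh1, Cdh5, Acta2, Cd3d, Col1a2, Tcf21 and Mfap5 were added after their values were seen. Positions are from GENCODE vM21. Alternatives were pseudocounts, filters, scalings, array weights and leaving out libraries. Each library is labelled as its own sample, and where separate animals are not stated, p-values measure the spread between libraries.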

Additional observations from a re-analysis of the deposited data

Results flagged for a closer look

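In the group of 4 endFoxf1+/- libraries, H3 lay far from the others for 3 genes by Dixon's test on log2(TPM + 1). The share of the range taken by the gap is given on that scale, beside the level in TPM. For Snai2, H3 was the lowest at 12.8 TPM, and the gap took 0.928 of the range. H3 was the highest for Twist1 at 16.5 TPM (0.932) and for Twist2 at 23.1 TPM (0.924). These were 3 of 20 groups examined (10 genes, Foxf1 included, in each genotype), and chance gives about 1 in 20. H3 was also the library with endothelial markers at 5.82% of the control mean.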

How the results depend on the processing

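Of the 10 genes tested singly (the 9 and Foxf1), 136 values under an alternative kept their direction and side of the threshold, 21 lost the threshold (4 of them without H3 and H4, where no exact p can pass it), 8 gained it and 11 changed sign. The threshold was an exact permutation p of 0.05. Under the filters, array weights and eBayes without a trend it was a limma adjusted p of 0.05, for the main value as well. The count of genes past an adjusted p of 0.05 was 0 under each pseudocount, filter and scaling, 148 with array weights, 3 without H3 and H4, and 0 to 1 when 1 library was left out (1 without C1 and 1 without H3, 0 otherwise). With array weights, which gave H3 and H4 the lowest weight, Snai2 (0.66, limma adjusted p = 0.0348) and S100a4 (1.95, limma adjusted p = 0.0335) passed the test across all genes, and Zeb1 (0.24) and Zeb2 (0.18) turned positive. With quantile normalization, Foxf1 was -1.46 and Twist2 1.43, both past no threshold, S100a4 2.32 and past it, and Zeb2 0.13. With the median ratio, Twist2 was 1.46, S100a4 2.60 and Zeb2 0.16. Without Gm20594, Vim was 0.22, S100a4 2.45 and Zeb2 0.0034. Without H3 and H4, where the smallest possible exact p is 0.0667, Foxf1 was -0.55, Snai2 0.68, Twist1 0.80, Twist2 0.37, Zeb1 0.29 and Zeb2 0.28. The causes of these changes were not tested.

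With 1 library left out in turn, the log2 fold change was -2.08 to -0.83 for Foxf1, 0.65 to 1.19 for Snai1, 0.58 to 0.69 for Snai2, 0.85 to 1.71 for Twist1, 0.44 to 1.59 for Twist2, -0.70 to 0.13 for Zeb1, -0.20 to 0.16 for Zeb2, 0.07 to 0.28 for Vim, 0.06 to 0.64 for Cdh2 and 1.45 to 2.90 for S100a4. Relative to endothelial markers it was 0.87 to 2.80 for Snai1, 0.88 to 2.19 for Snai2, 1.04 to 3.31 for Twist1, 0.63 to 3.19 for Twist2, 0.32 to 0.90 for Zeb1, 0.17 to 1.503 for Zeb2, 0.26 to 1.81 for Vim, 0.25 to 2.17 for Cdh2 and 1.64 to 4.32 for S100a4.
Of these values relative to endothelial markers, the calls of Snai2, Twist1, Zeb1 and S100a4 ended without any 1 of the controls. Twist1 relative to endothelial markers was 1.80 at a pseudocount of 5 and 2.52 with Pecam1 alone as the reference (exact permutation p = 0.0571 each). Without H3, the difference relative to myeloid markers turned to 0.015 for Snai1 and 0.027 for Snai2, that of Twist1 relative to fibroblast markers to -0.20, and the log2 ratio of Zeb1 to Zeb2 to 0.16. The references other than endothelial markers, the ratios, and the alternatives for the list counts (median ratio, without H3, without H4, without both) were chosen after seeing the data. No paired analysis was possible because the replicate numbers only name the libraries and tie no control mouse to an endFoxf1+/- mouse. TPM gives no depth, so the precision of the low Twist1, Twist2 and Cdh2 values cannot be stated.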
